A study of Mus musculus with 46 samples.

Results

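H3.3 is the histone H3 variant that is placed on chromatin outside of DNA replication, mainly at the promoters, transcribed parts and enhancers of active genes. Its chaperone HIRA places it at genes, and DAXX with ATRX places it at repeats. The comparison described here is that of the 2 end points of cellular reprogramming: mouse embryonic fibroblasts on day 0 (D0) and the fully reprogrammed induced pluripotent stem cells (iPSCs). They were chosen as the H3.3 peak lists of D0 and of iPSCs, 2 of the 16 H3.3 libraries and of the 46 samples of the series.

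D0 cells were MEFs taken from mid-gestation embryos that carried an IRES-EGFP cassette behind the stop codon of *Pou5f1* (Oct4), before any factor was added. iPSCs came from such MEFs infected with pMXs retroviruses for Sox2, Klf4, Oct4 and c-Myc and reprogrammed, per the labels, in feeder-free medium with LIF, bFGF, CHIR99021 and ascorbic acid. For established iPSCs and ESD3 the study's methods give serum or serum replacement medium with LIF. Neither end point was sorted, and the same antibody lot was used for both. Each end point had 1 library, so no value below has a replicate check and no test across genes was made. Confidence intervals cover counting error only. Whether the iPSCs were a single clone was not given in the sources used here.

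A pair of other H3.3 libraries served as further samples of like cells. MEF was the day 0 sample of a separate transdifferentiation experiment, and ESD3 was the mouse embryonic stem cell line D3. D0 held 27.0M tags and iPSCs 41.2M, and MEF and ESD3 held 46.7M and 21.6M. A tag is a mapped read, and the authors scaled each peak to 10M tags per library. Tags within peaks made up 19.08% of D0, 13.96% of iPSCs, 7.64% of MEF and 7.4% of ESD3. The median fold over input of the peaks was 4.13 in D0, 3.25 in iPSCs, 2.61 in MEF and 4.25 in ESD3.

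The labels were checked against cell type markers. All 10 fibroblast markers, such as *Col1a1* and *Prrx1*, held an H3.3 peak in D0 and in MEF, 3 of 10 did in iPSCs and 0 of 10 in ESD3. Of the 10 pluripotency markers, all 10 held a peak in iPSCs, 9 in ESD3, 3 in D0 and 4 in MEF. Markers of other cell types had low summed densities at both end points, although some held a peak. Of the 5 endothelial markers, 4 held a peak in D0 and 2 in iPSCs. These counts were 3 and 2 for the 5 blood markers, and 3 and 3 for the 5 neural markers. The 10 fibroblast markers summed to 107.1 tags per kb in D0 and 1.79 in iPSCs. The 10 pluripotency markers summed to 5.66 and 344.4, with 265.9 of the latter from *Pou5f1*. The summed density of the 5 endothelial markers was 4.36 tags per kb in D0 and 3.68 in iPSCs, that of the 5 blood markers 2.12 and 1.63, and that of the 5 neural markers 2.22 and 0.745. Of the 5 muscle markers, none held a peak in D0 and 2 did in iPSCs, with a summed density of 0.173 tags per kb.

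Sequences under H3.3 peaks are shown first, since the letters under peaks of D0 alone and of iPSCs alone differed. Peaks of D0 that shared no base with an iPSC peak are called D0-only (62818 peaks), and the reverse iPSC-only (53011 peaks). Windows of 500 bp at peak midpoints were searched on both strands. The letters TGANTCA, bound by AP-1 factors such as Fosl1 and Jun, stood in 23.2% of D0-only windows and 13.5% of iPSC-only windows, against 14.3% of all 500 bp tiles of the genome. In intergenic windows the shares were 29.6% and 14.5%, and in the 10000 top-scoring peaks of each set 31.3% and 14.5%. MEF peaks without an ESD3 peak held these letters in 20.6% of windows, and ESD3 peaks without a MEF peak in 14.4%. The shares thus lay above the genome share in both fibroblast libraries and near it in both pluripotent libraries.

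The 3 highest-scoring intergenic D0-only peaks with these letters are given as examples in mm9, with TGANTCA in capitals and 60 bases to either side. They lay at chr3:90421354-90421480 (+ strand, 3.02 kb from *S100a6*), chr7:125623737-125623863 (+ strand, 9.38 kb from *Itpripl2*) and chr1:158356194-158356320 (+ strand, 1.92 kb from *Soat1*). Their peaks were 15.3, 10.9 and 10.4 kb long, and all 3 sites also held a peak in MEF and none in ESD3.
S100a6 side: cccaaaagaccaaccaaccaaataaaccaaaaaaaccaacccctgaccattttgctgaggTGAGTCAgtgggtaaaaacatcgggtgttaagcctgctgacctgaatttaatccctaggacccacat
Itpripl2 side: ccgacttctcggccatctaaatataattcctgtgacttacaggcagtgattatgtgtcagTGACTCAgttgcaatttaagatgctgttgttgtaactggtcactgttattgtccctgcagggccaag
Soat1 side: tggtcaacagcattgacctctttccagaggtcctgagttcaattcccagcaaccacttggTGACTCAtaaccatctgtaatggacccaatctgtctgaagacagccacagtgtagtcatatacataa

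The letters GGGNGTGGC, a Klf-type site, were more frequent in iPSC-only than in D0-only windows as a whole. They stood in 4.00% of iPSC-only windows and 2.36% of D0-only windows, against 1.79% of genome tiles. In the 10000 top-scoring peaks of each set the shares were 5.41% and 2.22%, but in promoter windows 3.29% and 3.48%. Shared peaks held them in 3.95% (D0) and 3.92% (iPSCs) of windows, close to the iPSC-only share. GC content was 47.0% in iPSC-only and 45.6% in D0-only windows, above the 41.8% of the genome, and its part in these shares was not tested. The octamer ATGCAAAT, bound by Oct4, stood in 3.99% of iPSC-only and 2.71% of D0-only windows, both below the 4.36% of genome tiles. In intergenic windows the shares were 5.08% and 2.96%, and in the 10000 top-scoring peaks of each set 5.05% and 2.59%. In these subsets the iPSC-only share lay above that of the genome. In promoter windows the shares were 2.76% and 2.56%. For the joined Oct4-Sox2 motif the shares were 0.169% and 0.115%, against 0.144% of tiles. The Tead letters ACATTCC were in 7.72% of iPSC-only and 7.95% of D0-only windows, against 6.72% of tiles.

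The 3 highest-scoring intergenic iPSC-only peaks with the Klf-type letters are shown in the same way, each with a peak in ESD3 and none in MEF. They lay at chr10:75493389-75493517 (- strand, 1.84 kb from *Zfp280b*), chr11:4364296-4364424 (- strand, 16.4 kb from *Mtmr3*) and chr19:38421602-38421730 (+ strand, 38.2 kb from *Lgi1*).
Zfp280b side: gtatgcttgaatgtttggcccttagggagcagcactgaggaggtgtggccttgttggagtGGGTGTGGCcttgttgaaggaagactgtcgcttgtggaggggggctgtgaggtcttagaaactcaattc
Mtmr3 side: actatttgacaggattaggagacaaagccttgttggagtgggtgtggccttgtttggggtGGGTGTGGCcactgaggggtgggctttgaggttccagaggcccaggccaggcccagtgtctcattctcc
Lgi1 side: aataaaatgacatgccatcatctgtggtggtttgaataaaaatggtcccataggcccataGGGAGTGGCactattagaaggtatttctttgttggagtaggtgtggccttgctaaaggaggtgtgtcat

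The first and second of these windows shared a run of 28 bases, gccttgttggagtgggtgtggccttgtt, and the third shared 13 bases with the first, whereas no pair of the 3 D0 windows shared more than 9.

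The promoters of *Thbs1* and *Nanog*, chosen after their values were seen, lay wholly within a peak at 1 end point and outside of any peak at the other. Those of *Tnc*, *Csf1*, *Coil* and *Sirt4* did so too and are not shown. *Thbs1* encodes thrombospondin, a secreted matrix glycoprotein of fibroblasts, and *Nanog* encodes a homeodomain factor of the pluripotency network. The 250 bases before the annotated start lay at chr2:117937362-117937611 (+ strand) for *Thbs1* and at chr6:122657257-122657506 (+ strand) for *Nanog*. The match to the joined Oct4-Sox2 motif in the *Nanog* promoter, in capitals, began 75 bp before the start. None of the 5 motifs was found in the window of *Thbs1*, nor in those of *Tnc*, *Csf1*, *Coil* and *Sirt4*. A match to the joined motif stood in 0.0810% of the promoter windows of all protein-coding genes, and in 0.153% of those of genes with no peak at either end point.
Thbs1 promoter: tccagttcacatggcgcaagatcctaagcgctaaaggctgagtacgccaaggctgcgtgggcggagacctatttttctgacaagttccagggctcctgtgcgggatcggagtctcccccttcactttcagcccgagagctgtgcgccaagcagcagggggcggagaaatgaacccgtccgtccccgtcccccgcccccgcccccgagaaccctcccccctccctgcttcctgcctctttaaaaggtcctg
Nanog promoter: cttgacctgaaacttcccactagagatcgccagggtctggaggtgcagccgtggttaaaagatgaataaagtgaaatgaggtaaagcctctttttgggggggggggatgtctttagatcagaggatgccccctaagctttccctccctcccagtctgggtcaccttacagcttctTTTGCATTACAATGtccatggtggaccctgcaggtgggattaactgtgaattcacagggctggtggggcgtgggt

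Peaks of D0 lay more often in genes than those of iPSCs. Each peak was placed by its midpoint as promoter-TSS (1000 bp upstream to 100 bp downstream of a start), transcript end (TTS), exon, intron or intergenic. Of 89727 D0 peaks, 68.8% (95% Wilson interval 68.5 to 69.1) were in the first 4 classes, against 61.2% (60.9 to 61.6) of 81867 iPSC peaks. Introns held 54.4% of D0 and 46.2% of iPSC peaks, and intergenic sequence 31.2% and 38.8%. Among the 4 classes in genes, promoters were the one in which iPSCs had the higher share, 6.64% (6.47 to 6.81) against 5.36% (5.21 to 5.51) in D0. The plot of class shares sets these values beside MEF and ESD3.

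**Figure D1:**
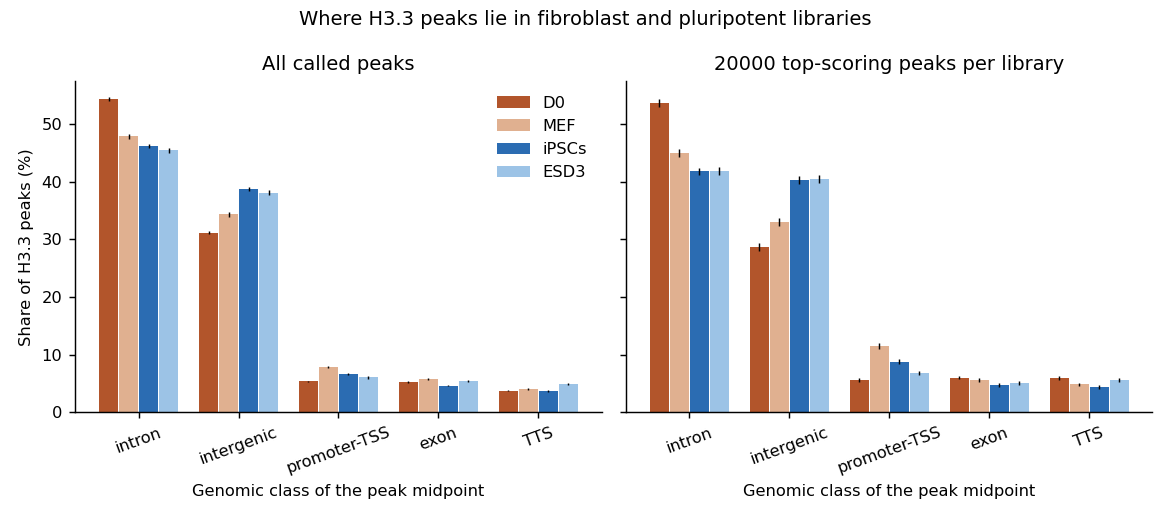
Share of H3.3 peaks (%) by the genomic class of the peak midpoint, for all peaks (left) and the 20000 top-scoring peaks of each library (right), with bars for D0, MEF, iPSCs and ESD3 and 95% Wilson intervals. The intron bar of D0 is the highest in both panels, and the intergenic bars of iPSCs and ESD3 are above those of D0 and MEF.

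The difference remained with equal numbers of peaks. With the 81867 top-scoring peaks of each, the share in genes was 68.7% in D0 and 61.2% in iPSCs. With the 20000 top-scoring peaks it was 71.3% in D0 and 59.7% in iPSCs, and 67.0% in MEF and 59.5% in ESD3. In these top peaks the intergenic share was 28.7% in D0, 32.985% in MEF, 40.3% in iPSCs and 40.5% in ESD3, so both pluripotent libraries were above both fibroblast libraries. The promoter share did not follow the cell type: it was 11.5% in MEF, 8.80% in iPSCs, 6.86% in ESD3 and 5.61% in D0.

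Within genes, H3.3 of iPSCs was concentrated near starts and that of D0 extended to the ends. Among 11252 compared genes of 10 kb or more, the base 750 bp upstream of the start lay in a peak in 41.3% of genes in iPSCs, 30.6% in D0, 19.8% in MEF and 14.8% in ESD3. At 1000 bp downstream of the start the shares were 36.9%, 20.9%, 14.1% and 8.44%. All 4 libraries dipped at the start itself, to 21.3% in iPSCs and 19.4% in D0. H3K4me3, the mark of active promoters, covered the start in 78.9% of these genes in iPSCs and 83.0% in D0. At the gene end, D0 covered 24.2% and iPSCs 15.7%, and 10 kb into the gene D0 covered 16.0% and iPSCs 12.6%. MEF and ESD3 differed less at the end, with 10.1% and 9.78%.

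**Figure D2:**
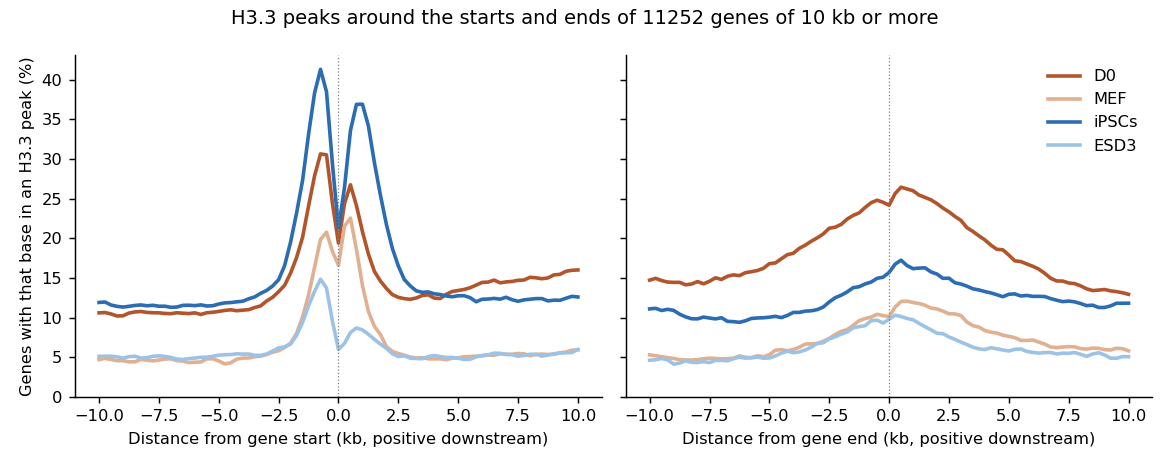
Percentage of 11252 genes in which a base at the given distance (kb) from the gene start (left) or end (right) lay within an H3.3 peak, with 1 line per library. The iPSC line is the highest upstream of the start and up to 4.25 kb downstream of it, with D0 above it from 4.5 kb on, and the D0 line is the highest around the end, reaching 26.4% at 0.5 kb downstream against 17.2% in iPSCs.

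Peaks of both end points were of like typical length, and D0 had the longer tail. The median was 783 bp (95% interval 779 to 786) in D0 and 782 bp (779 to 785) in iPSCs, with 32.5% and 31.9% of peaks at the shortest length, 500 bp. Peaks of 5 kb or more numbered 3346 in D0 and 2010 in iPSCs, and held 21.9% and 13.6% of the bases under peaks. D0 had 711 peaks of 10 kb or more and iPSCs 221. With the 20000 top-scoring peaks the medians were 2817 bp (2797 to 2843) in D0, 2443 bp (2424 to 2462) in iPSCs, 1485 bp in MEF and 1238 bp in ESD3. Length thus ordered D0 above iPSCs and MEF above ESD3, but it also followed the share of tags in peaks, whose part in length was not tested.

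**Figure D3:**
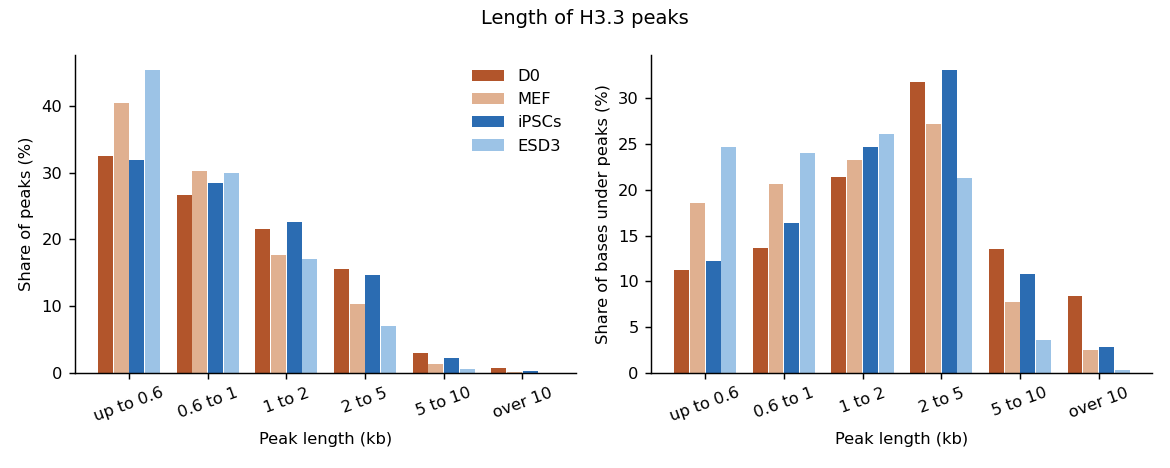
Share of H3.3 peaks (%, left) and of the bases under peaks (%, right) by peak length (kb) in D0, MEF, iPSCs and ESD3. Peaks over 10 kb held 8.43% of covered bases in D0, 2.80% in iPSCs, 2.50% in MEF and 0.322% in ESD3.

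The longest peaks ranged from unshared to largely shared between the end points. In D0 the longest spanned 124.6 kb over *Hmga2*, a chromatin protein of embryonic mesenchyme (chr10:119791047-119915658), and 24.9% of its bases lay in iPSC peaks. The next were 91.9 kb over *Tnc*, the matrix protein tenascin C (0.544% covered in iPSCs), and 90.7 kb over *Myh9*, the heavy chain of non-muscle myosin (65.3% covered). The laminin gene *Lamb1* (57.5 kb), the septin gene *Sept9* (47.5 kb) and the actin crosslinker *Actn1* (45.1 kb) followed, and then the peak over the actin-binding gene *Lasp1* (43.2 kb), of which 83.2% was covered in iPSCs. The other 3 of the 10 longest were a second *Actn1* peak (42.7 kb) and intergenic peaks of 42.9 kb and 42.6 kb, covered to 7.22% and 71.9% in iPSCs. In iPSCs the longest was 54.3 kb over *Phf17*, a subunit of a histone acetyltransferase complex, with 33.7% of its bases in D0 peaks. It was followed by a 44.6 kb peak over *6430527G18Rik* (63.2% covered in D0), by *Trim71* (29.7 kb, 12.5%), a stem cell ubiquitin ligase, by the peak over *Ncoa3* and *Sulf2* (26.0 kb), and by *Mkrn1* (25.8 kb, with no D0 peak beneath it). Of the rest of the 10 longest in iPSCs, those over *Trim28*, *Bcl3* and *Igf2bp1* were covered to 77.0%, 75.6% and 68.1% in D0, and those over *Bptf* and *Pou5f1* to 36.3% and 10.7%.

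Most peaks of each end point were not shared with the other. Of D0 peaks 30.0% (29.7 to 30.3) shared at least 1 base with an iPSC peak, and of iPSC peaks 35.2% (34.9 to 35.6) with a D0 peak. Among the 20000 top-scoring peaks, 27.6% of D0 peaks overlapped an iPSC peak and 50.9% a MEF peak. Of the 20000 top iPSC peaks, 29.8% overlapped a D0 peak and 49.6% an ESD3 peak. Each end point thus shared more top peaks with the other library of like cells than with the other end point. With all peaks this held for D0, of which 33.3% overlapped a MEF peak. It did not hold for iPSCs, of which 34.5% overlapped an ESD3 peak. MEF and ESD3 had fewer peaks than the end points.

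Promoter peaks were the most often shared, 65.9% of those in D0 and 58.6% of those in iPSCs, and intergenic peaks the least, 22.8% and 21.1%. Intron peaks of D0 were shared less often (28.6%) than those of iPSCs (40.1%). The shared share rose with peak score, from 17.7% in the lowest-scoring 10% of D0 peaks to 62.9% in the highest-scoring 10%, and from 23.9% to 63.7% in iPSCs. Shared peaks were longer, with medians of 1297 bp in D0 and 1154 bp in iPSCs against 680 bp for the peaks of either end point alone. Of D0-only peaks, 26.4% held a MEF peak and 6.18% an ESD3 peak. Of iPSC-only peaks, 28.5% held an ESD3 peak and 5.68% a MEF peak.

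Histone marks of the same end points differed under these peaks. D0-only peaks overlapped an H3K4me3 peak of D0 in 19.4% of cases and one of iPSCs in 5.08%. Among iPSC-only peaks these shares were 14.0% with H3K4me3 of D0 and 21.8% with that of iPSCs. The H3K4me3 libraries had 30.4% of their tags in peaks in D0 and 12.7% in iPSCs, and the part of this was not tested. For H3K36me3, the mark of transcribed gene bodies, 26.5% of D0-only peaks overlapped a peak of D0 and 5.15% one of iPSCs. Of iPSC-only peaks 15.9% overlapped H3K36me3 of D0 and 6.17% that of iPSCs, so that D0 gave the higher share in both sets. The iPSC H3K36me3 library had 2.88% of its tags in peaks against 31.3% in D0, which bears on that comparison, and its part was not tested.

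Across genes, more had their H3.3 higher in D0 than in iPSCs. The gene-body density was the sum of the normalized tag counts of peaks, each in proportion to the bases it shares with the gene, per kb of gene. Genes compared were the 15019 of 22225 protein-coding genes with a peak in at least 1 end point, and a pseudocount of 0.5 tags per kb was added before taking log2. At a 2-fold difference, 4332 genes (28.8% of those compared) were higher in D0, 2566 (17.1%) were higher in iPSCs and 8121 were within 2-fold. In such bulk samples, fewer cells with H3.3 at a gene and less H3.3 per cell cannot be told apart. Of the 4332 genes 1501 had no iPSC peak, and of the 2566 genes 1446 had no D0 peak. The median log2 difference, iPSCs minus D0, was -0.32. D0 had more tags in peaks, and dividing each library by its summed score in peaks moved every log2 ratio up by 0.45. The counts then came to 3382 in D0 and 3301 in iPSCs, so the surplus of D0 genes depended on the scaling. It also depended on the fibroblast library, since with MEF in place of D0 1632 genes were higher in MEF and 5450 in iPSCs. With equal numbers of top-scoring peaks, the counts were 4175 and 2710.

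The genes higher in iPSCs were shorter. Their median length was 13.5 kb, against 22.4 kb for genes higher in D0 and 30.7 kb for genes within 2-fold. Among genes under 5 kb, 28.8% were higher in iPSCs and 30.8% in D0, whereas among genes of 100 kb or more 4.70% were higher in iPSCs and 25.1% in D0. The median density of the latter was 0.468 in D0 and 0.166 in iPSCs, below the pseudocount of 0.5. It was 5.03 and 4.63 in genes under 5 kb. Long genes could thus pass the 2-fold rule less readily, and the part of this was not tested.

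Both gene groups kept their direction in the other libraries more often than genes at large. Higher density in MEF than in ESD3 was found for 1625 (37.5%) of the genes higher in D0, against 17.5% of all genes compared, and the reverse for 236 of them. Higher density in ESD3 than in MEF was found for 1171 (45.6%) of the genes higher in iPSCs, against 16.8% of all genes compared, and the reverse for 159. Shares for the histone marks were taken over genes with a peak of the mark at either end point. H3K4me3, relative to its own median difference of -1.02 (log2), was higher in D0 for 17.3% of 4037 D0 genes (6.74% of all genes with the mark). It was higher in iPSCs for 28.6% of 2322 iPSC genes (9.26%). A gene of equal H3K4me3 density at both end points also counted as higher in iPSCs, so this share does not by itself show a gain. For H3K36me3 relative to its median of -2.35 the shares were 32.7% of 3393 D0 genes (23.4%) and 41.4% of 1446 iPSC genes (27.5%). With that median, a gene with little H3K36me3 in D0 and no iPSC peak of the mark also counted as higher in iPSCs. *Fap*, with an H3K36me3 density of 0.378 in D0 and no such peak in iPSCs, is an example. The iPSC H3K36me3 library had 2.88% of its tags in peaks. The iPSC shares therefore do not show a gain of this mark.

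The density of these groups changed along the series of H3.3 libraries. The groups were set by their D0 and iPSC densities, so their values in those libraries follow in part from that choice. The median of the D0 genes was 3.46 tags per kb in D0, 1.58 on day 3 and 1.92 in the Thy-1 negative cells of day 6 (D6T-). It then was 1.06 in D9T-, 0.259 in D12S+ and 0 in D16S+, against 0.300 in iPSCs and 0.161 in ESD3. The D6T- and D9T- cells had lost the fibroblast surface protein Thy-1, and the D12S+ and D16S+ cells carried the pluripotency antigen SSEA-1. In the SSEA-1 negative fractions D12S- and D16S- it was 2.43 and 1.14. The median of the iPSC genes was 0 in D0, 0.0557 on day 3 and 0.654 in D6T-. It then was between 0.231 (D16S+) and 0.510 (D9T-) in D9T-, D12S+ and D16S+, and 1.12 and 0.367 in the SSEA-1 negative D12S- and D16S-. It was 2.71 in iPSCs, against 0.774 in ESD3. Genes within 2-fold fell as well, from a median of 1.17 in D0 to 0.127 in D16S+, so levels in D16S+ were low for all 3 groups. Their median was 1.67 in D12S- and 0.329 in D12S+. Tags within peaks made up 21.96% of D12S-, 12.21% of D16S-, 6.93% of D12S+ and 4.88% of D16S+. The part of these shares in the values of the fractions was not tested.

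**Figure D4:**
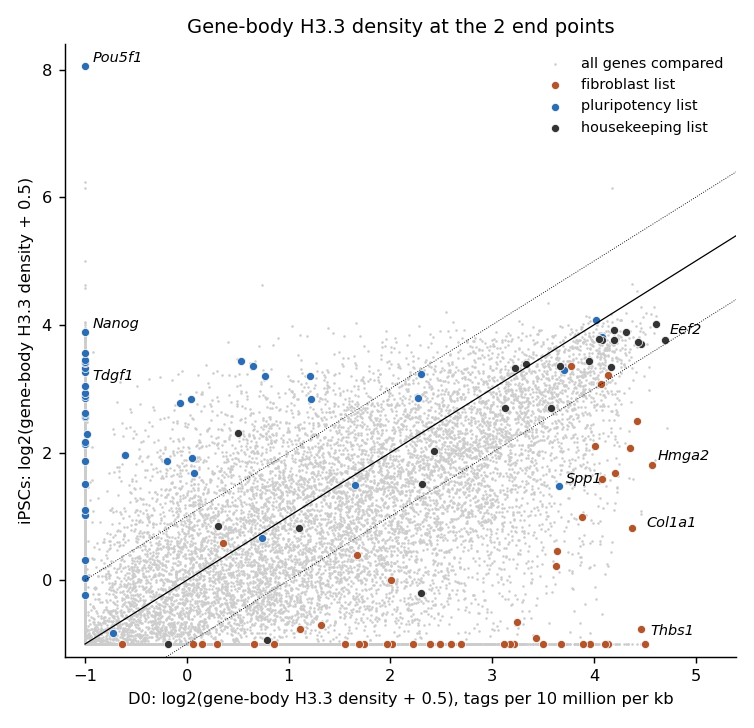
Gene-body H3.3 density, log2(tags per 10M per kb + 0.5), in D0 (x axis) and iPSCs (y axis) for 15019 genes (grey) and the members of 3 lists, with dotted lines at 2-fold. Fibroblast genes lie on or below the diagonal apart from 1, 25 of 46 pluripotency genes along the left edge where D0 had no peak, and housekeeping genes near the diagonal at high density.

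Of the 10 genes of highest density in D0, among those of 5 kb or more, 5 were within 2-fold of their iPSC density and 5 were not. *Eef2*, the translation elongation factor, led with 25.4 tags per kb in D0, 13.1 in iPSCs, 24.1 in MEF and 16.3 in ESD3. The chaperone *Hsp90ab1* (23.9), the ribosomal scaffold *Gnb2l1* (22.9), the ribosomal protein gene *Rpl3* (22.3) and the methionine adenosyltransferase *Mat2a* (22.2) were, like *Eef2*, within 2-fold. *Angptl4* (23.7 in D0 and 3.19 in iPSCs), *Hmga2* (23.2 and 2.98), *Bloc1s1* (22.8 and 9.60), *Tlcd2* (22.0 and 8.66) and *Thbs1* (22.2, with no peak in iPSCs) were not. *Angptl4*, a secreted inhibitor of lipoprotein lipase, had no peak in MEF.

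In iPSCs the highest density among genes of 5 kb or more was that of *Coil*, which encodes the coilin of Cajal bodies, with 24.2 tags per kb. It had 1.16 in D0, 3.32 in ESD3 and no peak in MEF, and input tags under its iPSC peaks were 2.54 times the median of the library. *Dynlt1b* (22.7 in iPSCs, 21.0 in D0) and *Dynlt1a* (16.0 and 5.61), near-identical dynein light chain genes between which reads may be split, had input at 4.05 and 2.91 times the median. *Il3ra*, an interleukin receptor chain, had 18.0 in iPSCs and 5.34 in D0. *Rpl3* (17.6), the corepressor *Trim28* (16.3), *Tlcd1* (16.3), the nucleolin gene *Ncl* (15.8) and *Hsp90ab1* (15.6) were within 2-fold of D0. *Wbscr27* had 15.9 in iPSCs, 2.66 in D0, 12.4 in ESD3 and 0.582 in MEF. *Rpl3* and *Hsp90ab1* stood in the first 10 of both end points.

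The 10 largest differences towards D0, among genes of 5 kb or more, were led by *Thbs1*, *Tnc* and *Csf1*. *Thbs1* had 22.2 tags per kb in D0, 18.9 in MEF and no peak in iPSCs or ESD3. *Tnc* had 21.5 in D0, 8.38 in MEF, 0.0857 in iPSCs and no peak in ESD3. *Csf1*, the macrophage growth factor, had 20.9 in D0, 15.5 in MEF and no peak in iPSCs or ESD3. In these 3 genes both fibroblast libraries lay far above both pluripotent ones. Their choice fixed D0 above iPSCs, and by any margin this order of the libraries held for 24.3% of all genes compared.

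*Zyx* (zyxin of focal adhesions, 21.5 in D0 and 1.55 in iPSCs), *Col1a1* (the main chain of type I collagen, 21.6 and 1.62) and *Vim* (the intermediate filament vimentin, 20.2 and 1.27) had 8.43, 17.2 and 10.2 in MEF. *Rgs16*, a regulator of G protein signalling, had 18.1 in D0, 11.2 in MEF and no peak in iPSCs or ESD3. *Plau*, the urokinase plasminogen activator, had 19.6 in D0 but 0.907 in MEF. *Hmga2* and *Angptl4* completed the 10. *Plau* and *Angptl4* were thus high in 1 fibroblast library of 2.

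Among genes of 5 kb or more, which leaves out *Pou5f1* (4.74 kb), the 10 largest differences towards iPSCs included *Nanog*, with 14.3 tags per kb in iPSCs, 23.7 in ESD3 and no peak in D0 or MEF. *Ucp2*, a mitochondrial carrier, had 13.2 in iPSCs, 12.4 in ESD3 and no peak in D0 or MEF. *Pxt1* had 12.7 and 5.77 and likewise no peak in D0 or MEF. *Sirt4* (15.2 in iPSCs and 1.55 in D0) and *Sirt6* (13.4 and 1.36), both of the sirtuin family, had 8.68 and 6.30 in ESD3, and *Mkrn1*, a RING finger protein, had 12.9 in iPSCs, 0.822 in D0 and 9.17 in ESD3. For these 6 genes both pluripotent libraries were above both fibroblast libraries, as they were for 16.4% of all genes compared. The choice of these genes fixed iPSCs above D0. *Zfp600*, a zinc finger gene of a repeated family, had 13.3 in iPSCs, 5.51 in ESD3 and no peak in D0 or MEF, with input under its iPSC peaks at 4.16 times the median. *Coil*, *Wbscr27* and *Il3ra* completed the 10.

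Genes of the fibroblast list were higher in D0. This list and those below were chosen with earlier results of these data known, so their counts are a description. Of 50 listed genes 47 had a peak, 42 were at least 2-fold higher in D0 (background 28.8%) and 0 in iPSCs, and the median log2 difference was -2.90 against -0.32 over all genes compared. From MEF to ESD3 the median was -2.45, with 38 of the 47 at least 2-fold higher in MEF (17.5% of all genes compared were). *Thy1*, the surface protein used to sort fibroblasts, had 8.75 tags per kb in D0, 10.2 in MEF and no peak in iPSCs or ESD3. *Twist1*, a mesenchymal transcription factor, had 2.85, 7.88 and no peak in the same order. *Adcy7*, an adenylyl cyclase, had 5.11 in D0, 1.69 in MEF and no peak in iPSCs or ESD3. The smooth muscle actin gene *Acta2* (16.7 in D0), its partner *Tagln* (15.1), *S100a4* (17.1) and *Twist2* (14.3) had no iPSC peak.

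Not every listed gene differed. The repressor *Snai1* had 13.1 in D0 and 9.69 in iPSCs, and the YAP targets *Ctgf* (16.3 and 7.92) and *Cyr61* (17.1 and 8.80) were just within 2-fold. *Cnn1* had 0.783 in D0 and 0.997 in iPSCs.

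Collagen genes moved alike, 18 of 21 with a peak being at least 2-fold higher in D0 (28.8% of all genes compared were) and 0 in iPSCs, with a median log2 difference of -2.70. *Col1a2* (16.7 in D0), *Col3a1* (12.3) and *Col6a3* (8.52) had no iPSC peak, while *Col18a1* had 2.92 in D0 and 2.68 in iPSCs. Of 26 contractile and actin-binding genes, 22 were higher in D0, against the same 28.8%, and 0 in iPSCs (median -1.79). *Acta2*, *Tagln*, *Flnc* (13.3 in D0) and *Vcl* (0.443 in iPSCs) led, and the broadly used *Actn4* (16.2 and 10.6) and *Cnn2* (16.7 and 10.7) were within 2-fold. Of 14 genes for AP-1 and related factors, 8 were higher in D0, again against 28.8%, and 0 in iPSCs (median -1.55). *Fosl2* had 15.7 tags per kb in D0, 0.313 in iPSCs, 8.85 in MEF and no peak in ESD3, and *Fosl1* had 18.2, 2.11, 8.06 and 1.04. *Fos* (8.39 in D0 and 6.68 in iPSCs) and *Jund* (9.03 and 10.5) were within 2-fold.

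Hox genes, which record position along the body axis, had peaks in 20 of 32 members. Of these 12 were higher in D0, led by *Hoxb9* (8.95 and 0.0579) and *Hoxc6* (6.50, with no iPSC peak), and 4 in iPSCs, among them *Hoxa13* (2.94) and *Hoxa10* (1.501) with no D0 peak. Over all genes compared the shares were 28.8% and 17.1%, the latter near that of the Hox genes higher in iPSCs. The median was -1.96 from D0 to iPSCs and -0.21 from MEF to ESD3. *Hoxa10* had 1.56 in MEF and 3.94 in ESD3, so that MEF lay above iPSCs.

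**Figure D5:**
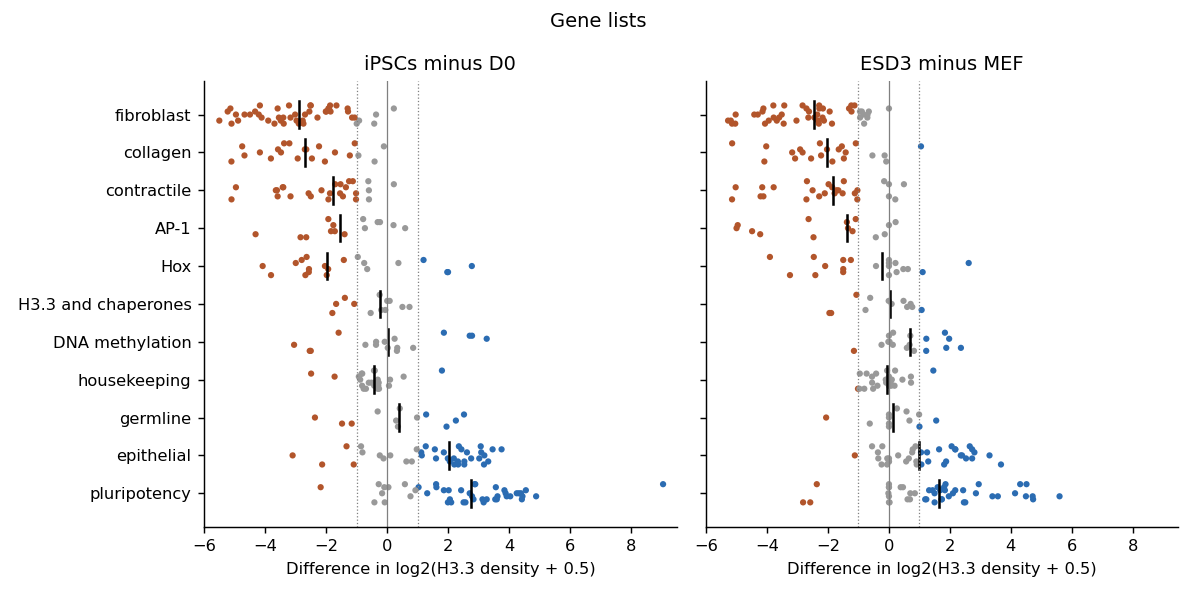
Difference in log2(gene-body H3.3 density + 0.5) for each list member with a peak at either end point, iPSCs minus D0 (left) and ESD3 minus MEF (right), with black lines at list medians and dotted lines at 2-fold. The medians of the fibroblast, collagen, contractile and AP-1 lists lie left of 0 and those of the epithelial and pluripotency lists right of 0 in both panels, with single members on the other side, whereas the Hox median is -1.96 on the left and -0.21 on the right.

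Genes of the pluripotency list were higher in iPSCs. Of 50 listed genes 46 had a peak, 36 were at least 2-fold higher in iPSCs (background 17.1%) and 1 in D0, and the median log2 difference was 2.75. From MEF to ESD3 the median was 1.64. The sign of the list median depended on the minimum fold over input. With peaks of at least 4-fold, which kept fewer of the iPSC than of the D0 peaks, it was -0.40 (23 genes, interval -1.01 to 0.88). The median over all genes compared was -1.1965 at that setting, so the list still lay above genes at large. *Tdgf1*, a Nodal co-receptor, had 10.2 tags per kb in iPSCs, 12.8 in ESD3 and no peak in D0 or MEF. *Zfp42* (Rex1) had 5.67 and 10.8, and the growth factor *Fgf4* 7.74 and 12.6, likewise with no peak in either fibroblast library. *Lin28a* (11.3 in iPSCs, 1.10 in ESD3) and *Dppa2* (9.05 and 1.64) were high in iPSCs and low in ESD3. *Dppa4* and *Utf1* had peaks in iPSCs (5.44 and 4.00) and in none of the other 3 libraries.

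Of the 46 genes 10 were not higher in iPSCs, *Spp1* being higher in D0 and *Myc*, *Dppa5a*, *Lefty1*, *Lin28b*, *Dnmt3a*, *Trim28*, *Tbx3*, *Sall1* and *Sox2* within 2-fold. *Spp1*, osteopontin, had 12.1 in D0, 2.28 in iPSCs, 1.01 in ESD3 and no peak in MEF. *Dppa5a* had 16.5 in D0 and 13.5 in iPSCs with no peak in MEF or ESD3, and *Trim28* had 15.8 and 16.3. *Terf1*, a telomere protein outside of the list, had 4.05 in iPSCs, 0.451 in D0, 0.668 in ESD3 and 0.176 in MEF.

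The 4 reprogramming factors, which the cells received as retroviral cDNA, did not move as a group. *Pou5f1* (Oct4) had a gene-body density of 265.9 tags per kb in iPSCs, 10.9 in ESD3 and no peak in D0 or MEF. Its iPSC peak ran over 21.6 kb (chr17:35632123-35653719), and its input was also high, at 28.2 times the median of iPSC peaks, so that its fold over input was 2.59. In ESD3 the input at *Pou5f1* was 1.07 times the median and the fold 4.33. High input at *Pou5f1* was also found in D9T- (21.5 times), D12S+ (27.5), D16S+ (36.1), D12S- (18.0) and D16S- (21.0), and no peak was called there in D3, D6T-, D6T+ or D9T+. The density of *Pou5f1* in iPSCs can therefore not be set against that of other genes.

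*Sox2* had 8.91 tags per kb in iPSCs, 4.44 in D0, 9.55 in ESD3 and 3.22 in MEF, which was just under 2-fold between the end points. *Klf4* had 8.71 in iPSCs, 1.81 in D0, 1.47 in ESD3 and 11.3 in MEF, and *Myc* had 9.31, 12.6, 2.00 and 17.1. Input under the iPSC peaks of *Klf4* and *Myc* was 2.01 and 2.17 times the median, and that of *Sox2* 1.01 times. Among these 4 genes, *Pou5f1* and *Sox2* were thus higher in both pluripotent libraries than in both fibroblast libraries, and *Klf4* and *Myc* were not. Over all genes compared, 16.4% had that order.

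Epithelial genes, which fibroblasts acquire in the mesenchymal-to-epithelial transition, had peaks in all 38 members, 26 of them at least 2-fold higher in iPSCs (17.1% of all genes compared) and 4 in D0 (28.8%; median log2 difference 2.03, and 0.98 from MEF to ESD3). *Cdh1*, E-cadherin, had 9.82 tags per kb in iPSCs, 0.638 in D0, 8.20 in ESD3 and 0.181 in MEF. The tight junction genes *Cldn4* (10.3 and 1.09), *Cldn6* (4.07, no D0 peak) and *F11r* (6.26, no D0 peak) had the same order of end points. The 4 genes higher in D0 were the keratin gene *Krt19* (3.79, no iPSC peak), *Tjp1* (3.80 and 0.482), *Pkp1* (0.757, no iPSC peak) and *Pkp2* (2.54 and 0.926). *Epcam* was high in iPSCs (6.16 against 0.959 in D0) but not in ESD3 (0.356).

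Of 17 DNA methylation genes, 4 were higher in iPSCs (17.1% of all genes compared) and 4 in D0 (28.8%), near these shares over all genes. *Dnmt3b* (4.38 in iPSCs and 0.0061 in D0), *Dnmt3l* (6.62 and 0.531), *Tet1* (9.76 and 1.07) and *Tet2* (3.28 and 0.538) were higher in iPSCs. *Uhrf2* (6.55 in D0 and 0.350 in iPSCs), *Tet3* (6.62 and 0.727), *Mbd2* (5.33 and 0.528) and *Mbd1* (3.34 and 0.776) were higher in D0. The other 9 of 17 were within 2-fold, *Dnmt1* (5.53 in D0 and 3.18 in iPSCs) and *Dnmt3a* (1.16 and 1.08) among them. In ESD3 *Tet1* (1.23 against 0.567 in MEF) and *Dnmt3b* (0.670, no MEF peak) lay above MEF by less than in iPSCs above D0.

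Genes of H3.3 and its chaperones were mostly within 2-fold. *H3f3a* and *H3f3b*, which encode H3.3, had 11.9 and 9.09 tags per kb in D0 and 10.01 and 6.10 in iPSCs, and *Hira* had 1.36 and 1.13. *Daxx* (13.9 and 13.9) was equal at both end points. *Asf1a* (2.66 and 0.411), *Cabin1* (1.71 and 0.193), *Dek* (6.45 and 2.16) and *Ubn1* (2.46 and 0.903) were higher in D0, and 0 of 12 genes were higher in iPSCs. The list median was -0.22, and 0.16 after division of each library by its summed score in peaks. Germline genes had peaks in 12 of 25 members, 4 of them higher in iPSCs, such as *Tex19.1* (2.38, no D0 peak), and 3 in D0, such as *Tdrkh* (2.08, no iPSC peak). Over all genes compared, 17.1% were higher in iPSCs and 28.8% in D0, so that the D0 counts of the germline and chaperone lists were near the share over all genes.

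Housekeeping genes gave the reference for these lists. Of 24 genes 21 were within 2-fold, against 8121 of the 15019 genes compared. Their median log2 difference was -0.43 as scaled by the authors and -0.0043 after division by the summed score in peaks. *Actb* had 21.0 in D0 and 12.8 in iPSCs, and *Gapdh* 17.5 and 9.59. *Pgk1* (4.42 and 0.374) and *Nono* (1.22 and 0.0220) were higher in D0 and *Tfrc* (4.42 in iPSCs and 0.912 in D0) in iPSCs. After that division 40 of 47 fibroblast genes remained at least 2-fold higher in D0 and 37 of 46 pluripotency genes were higher in iPSCs. Over all genes compared, the shares at this scaling were 22.5% higher in D0 and 22.0% higher in iPSCs.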

How the data were processed

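H3.3 peak lists of D0 and iPSCs were analysed, with those of MEF and ESD3 and the H3K4me3 and H3K36me3 lists of both end points beside them. Reads were mapped by the authors to mm9 with STAR, keeping uniquely mapped reads, and peaks were called with HOMER in histone style for each library against an input. Versions were not given in the sources used here. As deposited, each peak carries a signal, its tag count brought to a library of 10M tags with input not subtracted, and a ratio of that count to input, of at least 2 for H3.3. Input tags were taken as score over fold. Bases outside peaks counted as 0, although median input under peaks was 3.34 tags per kb in D0 and 3.64 in iPSCs, and a 500 bp window needed 17 tags in D0 and 22 in iPSCs.

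Genes were 22225 protein-coding symbols of GENCODE vM1 on NCBIM37, the same build. Densities, motifs and intervals were computed in Python 3.11.15 with numpy 2.4.6, pandas 2.3.3 and scipy 1.17.1, and the density code was tested on simulated data. With 1 library per end point there was no test, and 2-fold was the call. Named genes were the 10 of highest density at each end point, the 10 of largest difference in each direction (5 kb or longer, skipping a gene that overlaps a higher-ranked one), up to 6 members of each list with the largest log2 difference and those going against the list, and 9 genes fixed by name; other list members and the sequence examples were chosen after their values were seen. The members and lists were chosen with earlier results of these data known. Alternatives were equal numbers of peaks by score or score per kb, the 20000 top peaks, a fold over input of at least 4, autosomes, midpoint assignment, pseudocounts of 0.1 and 2, input subtraction, division by summed score, overlap of at least 0.5, and ESD3 or MEF in place of an end point.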

Additional observations from a re-analysis of the deposited data

Results flagged for a closer look

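Among the 341 genes named or listed, 4 had a 2-fold difference from D0 to iPSCs and the opposite one from MEF to ESD3, as did 395 of the 15019 genes compared. The difference between these contrasts was not tested, since each rests on 1 library a side. *Klf4* differed by a log2 of 2.00 from D0 to iPSCs (1.81 and 8.71 tags per kb) and by -2.58 from MEF to ESD3 (11.3 and 1.47). *Klf2* differed by 2.87 (no D0 peak, 3.16 in iPSCs) and by -2.37 (2.08 in MEF, no ESD3 peak). *Angptl4* differed by -2.72 (23.7 and 3.19) and by 1.47 (no MEF peak, 0.887 in ESD3). *Spp1* differed by -2.18 (12.1 and 2.28) and by 1.60 (no MEF peak, 1.01 in ESD3).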

How the results depend on the processing

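No paired analysis was possible because each end point had 1 library, and for the same reason no replicate could be left out. The share of peaks in genes, 7.61 points lower in iPSCs than in D0, differed by -11.6 points with the 20000 top peaks, -16.0 when peaks under 4-fold over input were dropped and -7.06 on autosomes. The median length differed by -1 bp, and by -72, -374 and -130 bp with equal numbers, the 20000 top peaks and a fold of at least 4. D0 peaks overlapping an iPSC peak (29.99%) came to 31.2% with equal numbers, 30.4% ranked by score per kb, 27.6% with the top peaks, 5.99% at a fold of at least 4 and 18.6% at an overlap of 0.5. The reverse share (35.2%) came to 33.9%, 33.1%, 29.8%, 16.5% and 23.6% in that order, and to 35.6% on autosomes. Genes higher in D0 and in iPSCs (4332 and 2566) numbered 6727 and 625 at a fold of at least 4, 2169 and 1184 with a pseudocount of 2, 6904 and 1331 with ESD3 in place of iPSCs, and 1632 and 5450 with MEF in place of D0. The pluripotency median (2.75) was -0.40 at a fold of at least 4, 3.90 and 1.57 with pseudocounts of 0.1 and 2, and 1.59 with ESD3. At a fold of at least 4 the median over all genes compared was -1.1965. The fibroblast median (-2.90) was -3.97 and -1.83 with these pseudocounts and -2.21 with MEF. The cause of these shifts was not tested. Depth limits low peaks, since a peak needed 6.31 tags per 10M in 500 bp in D0 and 5.35 in iPSCs.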

Other observations

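The Klf-type letters under iPSC-only peaks stood in repeated sequence in part. Of the 1037 intergenic iPSC-only windows searched that held these letters, 142 (13.7%) held the same word of 16 bases, agcagtgggcgtggca, the most common one among them on either strand. The most common word among the 441 such D0-only windows was another one and was held by 18. The word of the iPSC windows stood in 173 of 52709 iPSC-only windows, 4 of 62726 D0-only windows, 52 of 40820 ESD3 windows without a MEF peak, 6 of 41665 MEF windows without an ESD3 peak, and 1227 of 5116421 tiles of the genome. The word was chosen from the iPSC windows, so that their count is a description, whereas the ESD3 and MEF counts come from other libraries. No annotation of repeats was used here.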
